A study of Mus musculus with 6 samples.

Results

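The DNA replication licensing genes analysed here are the 6 genes of the MCM helicase ring (*Mcm2*, *Mcm3*, *Mcm4*, *Mcm5*, *Mcm6* and *Mcm7*), the helicase activation genes *Mcm10*, *Cdc45* and *Gins1*, and the sliding clamp gene *Pcna*. They were chosen by gene symbol, and all 10 had a row among the 15280 genes of the RNA-Seq table. The table holds 6 libraries from 3 parous female mice, each of which gave 1 mammary tumor and its matched normal, adjacent gland, so n = 3 for each tissue. The glands are named M11035, M11640 and M9232 and the tumors T11035, T11640 and T9232, with the number of the mouse, and values are given in this order of mice. All mice carried the BK5.ATF3 transgene, in which the bovine keratin 5 promoter drives the transcription factor ATF3 in basal epithelial cells, and the normal glands therefore carried it too. Tumors arose between 6 and 12 months of age in this line and were collected at a length of 1.5 cm, after the females had raised a litter. The question addressed was whether the licensing genes differed in expression between tumor and gland.

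Licensing is the step that allows each stretch of DNA to be copied once per cell cycle. The origin recognition complex, together with Cdc6 and Cdt1, loads the ring of Mcm2 to Mcm7 onto DNA, where it stays inactive until S phase. The kinase Cdc7 with its activator Dbf4 then phosphorylates the ring, and Cdc45, the GINS complex and Mcm10 turn it into the helicase that opens the fork, while Pcna encircles DNA and tethers the polymerases. Many of these genes are known targets of E2F factors, and their transcripts are usually more abundant in dividing than in resting tissue.

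Because E2F control of this gene group is well known, the promoters of the members were read for 3 motifs. RefSeq promoters (GRCm38.p6, 250 bases before to 50 after the start) were given for 8 of the 10 members, with 2 starts for *Mcm7* and none for *Mcm4* and *Gins1*. Each was found exactly once in mm9, and mm9 positions from that match are used here. The first motif was an E2F site, searched on both strands as TTTGGCGC, TTTCCCGC, TTTGCCGC or TTTCGCGC. It was found in *Mcm3*, *Mcm5*, *Mcm6* and 1 of the 2 *Mcm7* promoters, and not in *Mcm2*, *Mcm10*, *Cdc45* or *Pcna*. Only these exact letters in this stretch were searched, so a missing match does not show that a gene lacks E2F sites. By comparison, 2.26% of the 32851 mouse promoters of the same length held it, and 3.49% of the 13607 promoters of genes in the table. The CCAAT box was found in 8 of 8 members (37.4% of all promoters and 37.2% of those of genes in the table). The CHR letters TTTGAA or TTCGAA were found in 3 members, *Mcm2*, *Cdc45* and, in 1 of its 2 promoters, *Mcm7* (19.2% and 14.5%).

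The *Mcm6* promoter held the most E2F matches, 3, of which the pair at -110 and -106 overlapped. It is shown beside the *Mcm10* promoter, which belongs to the member with the largest rise and held none. Capitals mark every E2F and CCAAT match (ATTGG is CCAAT on the other strand), and neither stretch held a CHR match. Both genes lie on the minus strand of mm9, *Mcm6* at chr1:130256283-130256532 and *Mcm10* at chr2:4933838-4934087, and each sequence runs 5′ to 3′ along the gene over the 250 bases before the RefSeq start:
*Mcm6*: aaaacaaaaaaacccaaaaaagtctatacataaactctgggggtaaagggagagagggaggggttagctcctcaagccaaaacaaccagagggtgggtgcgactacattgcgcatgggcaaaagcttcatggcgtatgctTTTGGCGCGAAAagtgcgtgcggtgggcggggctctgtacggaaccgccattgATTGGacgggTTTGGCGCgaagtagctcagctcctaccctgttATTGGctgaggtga
*Mcm10*: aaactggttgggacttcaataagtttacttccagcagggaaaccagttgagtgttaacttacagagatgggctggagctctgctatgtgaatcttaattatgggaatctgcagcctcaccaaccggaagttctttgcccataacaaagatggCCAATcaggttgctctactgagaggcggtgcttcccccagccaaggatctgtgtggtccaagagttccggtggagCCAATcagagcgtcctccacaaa

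For each of the other 3 ring genes, the first E2F match is shown in a window of 30 bases, with matches in capitals. They lie at chr1:20810356-20810385 for *Mcm3* (minus strand, from base +20, with a second match from base 39 outside the window), chr8:77633244-77633273 for *Mcm5* (plus strand, from base -153, where a second match on the other strand overlaps the first) and chr5:138613258-138613287 for *Mcm7* (minus strand, from base -165 of the upstream of its 2 starts, where a further match from base 17 shares its last base with a CCAAT box):
*Mcm3*: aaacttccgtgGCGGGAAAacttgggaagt
*Mcm5*: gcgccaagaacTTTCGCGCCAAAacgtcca
*Mcm7*: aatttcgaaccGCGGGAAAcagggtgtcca

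**Figure D1:**
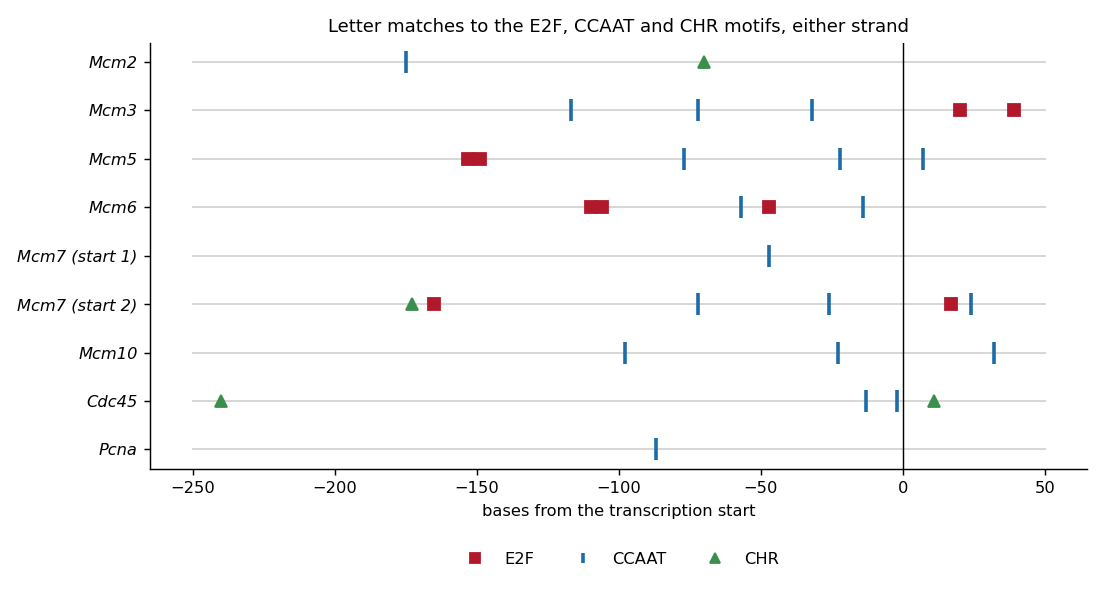
Positions of the E2F, CCAAT and CHR letters in the 9 RefSeq promoters of 8 members, with the distance from the start in bases on the x axis and 1 line per promoter. E2F letters lie in 4 of the 9 promoters, all of ring genes, and CCAAT lies in each of the 9.

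Fragments on genes numbered between 4750989 and 7806908 per library, and 3 fragments, taken as the floor of detection, correspond to 0.393 to 0.610 CPM. No member was at 0 in any library, and the lowest number of fragments on a member was 12. Expression is given as CPM, the fragments on a gene scaled by edgeR's effective library size. Tissues were compared by limma's moderated test on log2(CPM + 0.5), two-sided, with adjustment over all genes (FDR), and a DEG has FDR of at most 0.05 and FC of at least 2. With 3 libraries per tissue, the smallest p of an exact permutation test on 1 gene, without regard to the mouse, is 0.1. Calls therefore rest on limma's model, which shares variance across genes, and a limma fit without that sharing was not run.

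All 10 members had a higher mean in tumors than in normal glands, and 2 of them, *Mcm10* and *Gins1*, were upregulated DEGs. Among all genes tested, 14.5% were upregulated DEGs and 13.7% were downregulated, so 2 of 10 is close to the background. None of the 10 was a downregulated DEG. Without the FC threshold the count stayed at 2, where 21.6% of all genes passed the FDR and were higher in tumors. In 3 members (*Mcm3*, *Mcm10* and *Gins1*) the 3 tumors lay above the 3 glands, as did 27.6% of all genes. The median log2 fold change of the 10 members was 0.61, and that of all genes was -0.003. When normal gland M11640 was left out, the median of the members was 0.34.

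*Mcm10* (chromosome 2, 4910760 to 4933837, minus strand) encodes a factor that activates the loaded helicase and stays with the fork. It had 3.86, 1.98 and 3.28 CPM in the glands, against 13.6, 6.95 and 7.49 CPM in the tumors. Every tumor was above every gland, and the gland levels rested on 12 to 24 fragments. The mean rose from 3.04 ± 0.963 CPM (SD, n = 3) to 9.34 ± 3.68 CPM, with a log2 fold change of 1.45 (SE 0.34, adjusted p = 0.00899, limma). Its call held in 15 of 15 alternative settings.

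*Gins1* (chromosome 2, 150731136 to 150757016, plus strand) encodes a subunit of the GINS complex, which joins the ring and Cdc45 in the active helicase. It had 4.88, 4.62 and 4.10 CPM in the glands, and 14.9, 10.9 and 5.99 CPM in the tumors. The glands were close to each other and the tumors spread widely, with T9232 just above the highest gland. The mean rose from 4.54 ± 0.395 CPM to 10.6 ± 4.45 CPM (SD, n = 3), a log2 fold change of 1.05 (SE 0.32, adjusted p = 0.0301, limma). The call was lost without M11640 (adjusted p = 0.0624, limma), M9232 (0.0695), T11035 (0.101) or T11640 (0.107), and the log2 fold change was 0.77 without T11035. With a pseudocount of 1 it was 0.99, under the FC threshold.

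*Cdc45* (chromosome 16, 18780540 to 18812080, minus strand) encodes the partner of GINS in the active helicase. It had 8.54, 4.79 and 5.47 CPM in the glands, and 11.7, 9.57 and 5.99 CPM in the tumors. Each tumor was above the gland of its own mouse, but T9232 was below gland M11035. The log2 fold change was 0.49 (95% interval -0.22 to 1.21, adjusted p = 0.241, limma). Exons of *Cdc45* overlap *Ufd1l* on the opposite strand, and the strand setting of the counting is not given in the sources used here, so fragments of the pair may not be told apart.

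None of the 6 ring genes passed the FDR, and their log2 fold changes lay between 0.34 (*Mcm4*) and 0.67 (*Mcm5*), with a median of 0.61. *Mcm3* (chromosome 1, 20793055 to 20810359, minus strand) had 27.4, 14.9 and 22.6 CPM in the glands, and 41.9, 29.2 and 28.9 CPM in the tumors. It was the single ring gene whose tissues did not overlap. Its mean was 21.6 ± 6.34 CPM in glands and 33.3 ± 7.39 CPM in tumors (SD, n = 3), a log2 fold change of 0.63 (95% interval 0.04 to 1.22, adjusted p = 0.0811, limma). With the mouse as a replicate block, *Mcm3* passed the FDR (adjusted p = 0.0347, limma), below the FC threshold.

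*Mcm5* (chromosome 8, 77633427 to 77652338, plus strand) had 15.7, 7.27 and 11.8 CPM in the glands, and 22.9, 17.3 and 14.5 CPM in the tumors. Tumor T9232 was below gland M11035, while each tumor was above its own gland. The log2 fold change was 0.67 (95% interval -0.01 to 1.36, adjusted p = 0.104, limma). *Mcm7* (chromosome 5, 138605811 to 138613650, minus strand) had 33.7, 20.8 and 28.3 CPM in the glands and 46.9, 38.7 and 33.3 CPM in the tumors. Its tumor T9232 lay just under gland M11035, the only crossing between the tissues. The log2 fold change was 0.53 (95% interval 0.02 to 1.03, adjusted p = 0.0901, limma). Exons of *Mcm7* overlap *Ap4m1* and *Cops6* on the opposite strand, with the same limit as for *Cdc45* and *Ufd1l*.

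*Mcm6* (chromosome 1, 130228168 to 130256233, minus strand) had 31.9, 18.5 and 42.0 CPM in the glands, and 47.8, 41.7 and 46.9 CPM in the tumors. The tumors were close to each other, whereas the glands differed more than 2-fold, and gland M9232 was slightly above tumor T11640. The log2 fold change was 0.63 (95% interval -0.00 to 1.26, adjusted p = 0.102, limma).

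*Mcm2* and *Mcm4* were the ring genes with the most overlap. *Mcm2* (chromosome 6, 88833469 to 88848774, minus strand) had 7.73, 3.96 and 6.57 CPM in the glands, and 11.0, 11.5 and 5.84 CPM in the tumors. *Mcm4* (chromosome 16, 15623990 to 15637493, minus strand) had 64.9, 39.0 and 51.0 CPM in the glands and 76.3, 77.5 and 44.8 CPM in the tumors. In both genes tumor T9232 was below the gland of its own mouse. The log2 fold change of *Mcm2* was 0.59 (95% interval -0.18 to 1.35, adjusted p = 0.198, limma) and that of *Mcm4* was 0.34 (95% interval -0.26 to 0.94, adjusted p = 0.329, limma).

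*Pcna* (chromosome 2, 132074898 to 132079050, minus strand), the sliding clamp, had 165, 186 and 204 CPM in the glands, and 201, 271 and 194 CPM in the tumors. T11640 stood above all other libraries, and the other tumors lay within the range of the glands. It had the lowest log2 fold change of the members, 0.25 (95% interval -0.13 to 0.64, adjusted p = 0.267, limma). Similar sequences elsewhere in mm9 were found for 4 members, and whether reads were lost to or gained from them was not tested. *Pcna* has one on chromosome 19 (9357728 to 9358985, 99.3% identity over 1258 bp), and *Mcm7* one on chromosome 16 (53983945 to 53986320, 97.5% over 2376 bp). Shorter or less similar copies exist for *Mcm4* (91.2% over 1855 bp) and *Mcm6* (90.9% over 452 bp).

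**Figure D2:**
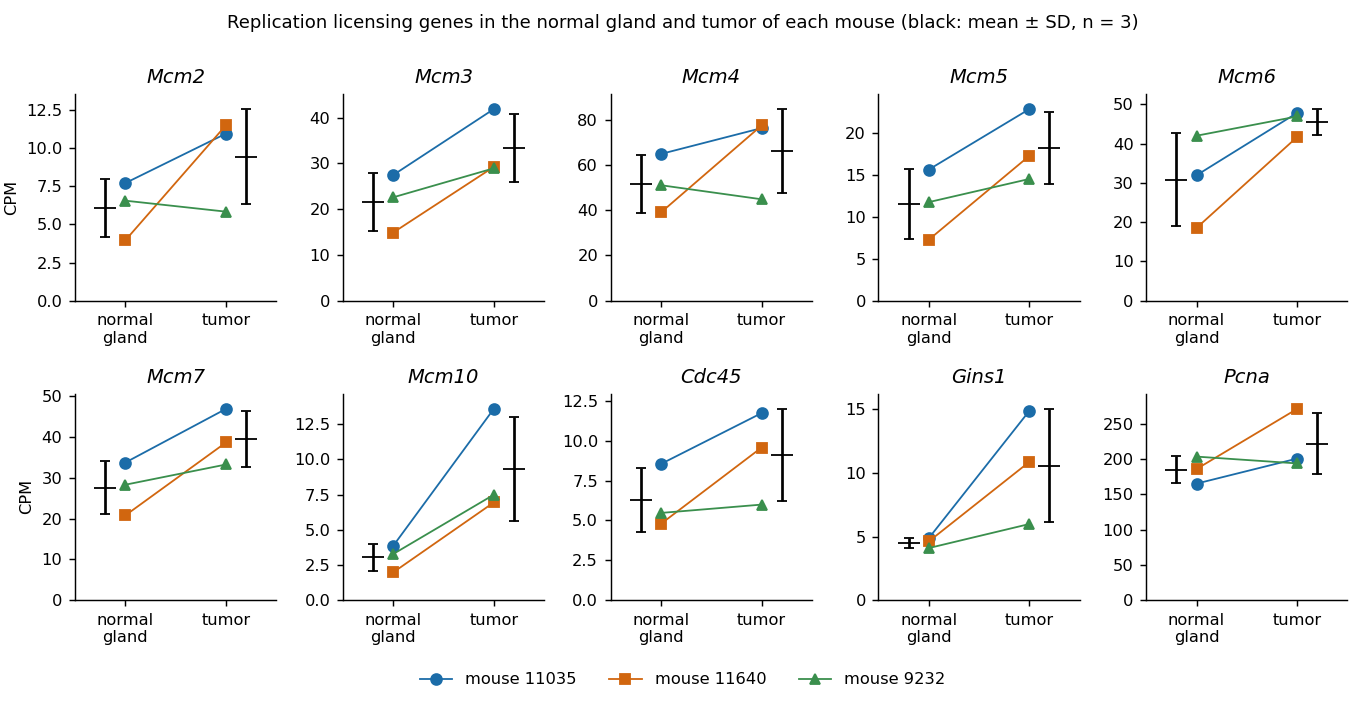
CPM of each of the 10 members in the 3 normal glands and the 3 tumors, with a line joining the libraries of 1 mouse and the mean ± SD (n = 3) beside the points. Tumors and glands are separated for *Mcm3*, *Mcm10* and *Gins1*, and tumor T9232 lies low in most panels.

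**Figure D3:**
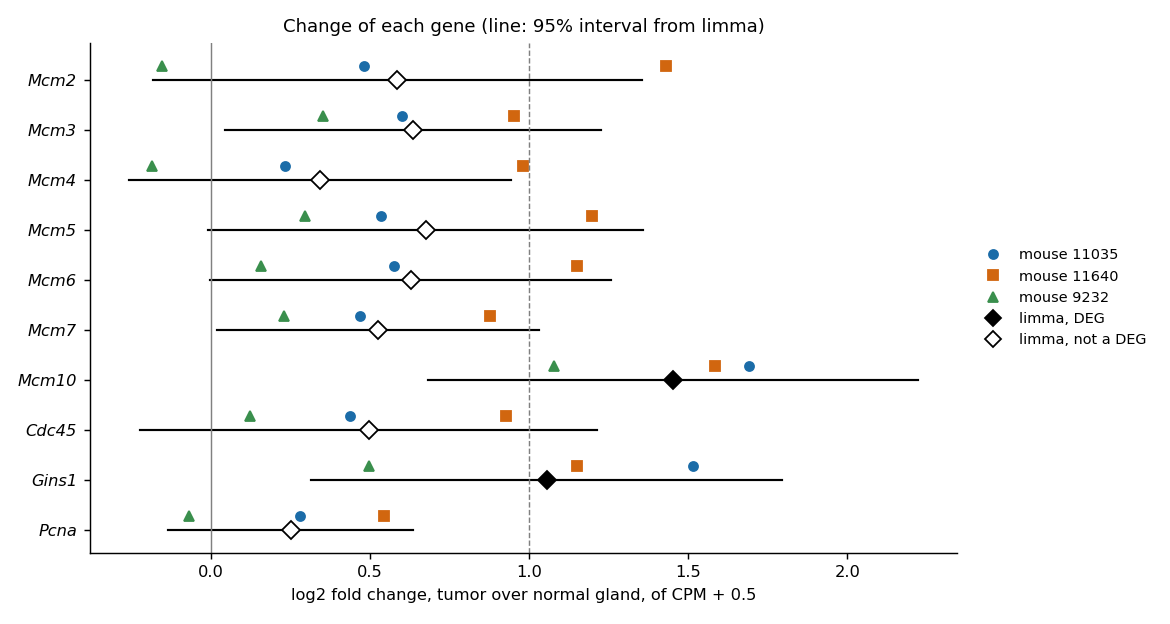
Log2 fold change (tumor against normal gland, on log2(CPM + 0.5)) of each member with its 95% interval from limma, and the difference within each mouse as points. *Mcm10*, at 1.45, and *Gins1*, at 1.05, are beyond the FC threshold of 1, and the points of T11640 lie to the right of those of T9232 in every member.

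The size of the difference varied between the mice. The median difference between tumor and gland over the 10 members on the log2 scale was 0.51 for T11035 against M11035, 1.07 for T11640 against M11640 and 0.19 for T9232 against M9232. All 10 members were higher in T11035 and T11640 than in the gland of the same mouse, and 7 of 10 were in T9232, where *Mcm2*, *Mcm4* and *Pcna* were lower. The same libraries stood at the ends for most members. M11640 was the lowest gland in 8 of 10 members and M11035 the highest in 8, whereas T9232 was the lowest tumor in 8 and T11035 the highest in 7. With gland M11035 left out, *Mcm3*, *Mcm5*, *Mcm7*, *Mcm10* and *Gins1* passed the FDR, 5 members in all. With gland M9232 left out, *Mcm6* and *Mcm10* passed it.

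Levels of different genes were compared as CPM per kb of the longest transcript. In normal glands *Pcna* was highest at 122 ± 12.6 CPM per kb (SD, n = 3), followed by *Mcm4* at 14.4 ± 3.61. *Mcm7*, *Mcm3* and *Mcm6* came next with 9.33 ± 2.19, 7.23 ± 2.12 and 7.07 ± 2.71 CPM per kb. Neighbours among these 3 did not differ beyond their SD, which is the spread between glands. Within libraries, however, *Mcm7* was above *Mcm3* in every one, whereas *Mcm3* and *Mcm6* changed order between glands. Neighbours among *Gins1* (4.17 ± 0.364), *Mcm5* (3.38 ± 1.23) and *Cdc45* (2.92 ± 0.932) did not differ beyond their SD either. *Mcm2* had 1.81 ± 0.572 and *Mcm10* 0.625 ± 0.198 CPM per kb. The order at both ends held in 6 of 6 libraries, with *Pcna* the highest and *Mcm10* the lowest member, and *Mcm4* the highest and *Mcm2* the lowest ring gene. The CPM per kb of the ring genes were not equal, whereas in the protein ring each subunit is present once. They rest on 1 transcript length per gene. The part of the similar sequences of *Mcm4*, *Mcm6* and *Mcm7* and of the overlapping exons of *Mcm7* was not tested.

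Relative to the ring, *Mcm10* transcripts were more abundant in each tumor than in each gland. The CPM of the 6 ring genes summed to 181, 104 and 162 in the glands, and to 247, 216 and 174 in the tumors. *Mcm10*, which is not part of that sum, had a CPM equal to 2.13%, 1.90% and 2.02% of it in the glands, and to 5.51%, 3.22% and 4.30% of it in the tumors. Tumors and glands did not overlap in this ratio. *Mcm10* is the member with the largest rise, so the separation follows in part from that and is no separate result. With libraries exchanged freely between tissues, without regard to the mouse, 0.1 is the smallest exact permutation p at this n.

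Of 63 other replication genes, listed by role, 62 had a row in the table (*Chtf18* had none). In tumors 5 were upregulated DEGs and 0 were downregulated, and the median log2 fold change was 0.31. Among all genes 14.5% were upregulated DEGs and 13.7% downregulated, so the upregulated share of this list was below that of all genes. All 3 tumors lay above all 3 glands for 19 of the 62, close to the 27.6% of all genes. They lay below for 3 of the 62, a smaller share than the 4022 of all 15280 genes. The DEGs were *Dbf4*, *Ticrr*, *Dna2*, *Rrm1* and *Rrm2*, of which *Rrm1* is named after its values were seen.

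Of the 12 genes listed under origin recognition and loading, 0 were DEGs and 0 passed the FDR, and the median log2 fold change was 0.17. The list and its median include *Mcm8* (0.03), *Mcm9* (-0.11) and *Mcmbp* (-0.18), which are not origin recognition subunits or loading factors. The subunits of the origin recognition complex lay on both sides of 0, at 0.57 for *Orc1*, -0.03 for *Orc2*, -0.11 for *Orc3*, 0.31 for *Orc4*, -0.37 for *Orc5* and 0.55 for *Orc6*. The loading factors *Cdc6* and *Cdt1* had values of 0.56 and 0.52. *Gmnn*, the inhibitor of Cdt1, had the highest value of the group, 0.69 (adjusted p = 0.0874, limma).

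Of 7 firing kinases and factors, 2 were DEGs, both upregulated, and the kinase gene *Cdc7* did not pass the FDR. *Dbf4*, the activator of Cdc7, had 17.1, 12.1 and 12.6 CPM in the glands, and 52.8, 37.2 and 28.0 CPM in the tumors, so that its log2 fold change was 1.44 (SE 0.26, adjusted p = 0.00256, limma). *Cdc7* had 19.9, 13.7 and 19.6 CPM in the glands and 24.7, 14.3 and 12.7 CPM in the tumors (log2 fold change -0.08, adjusted p = 0.849, limma). The ratio of *Dbf4* to *Cdc7* CPM was 0.857, 0.880 and 0.643 in the glands and 2.14, 2.61 and 2.20 in the tumors. This ratio was higher in every tumor than in every gland. *Dbf4* alone was too, so the separation follows in part from that and is no separate result. The ratio compares libraries and not the levels of both genes, since their lengths differ. *Ticrr* (listed as *5730590G19Rik*), which brings Cdc45 to the ring, rose with a log2 fold change of 1.54 (SE 0.33, adjusted p = 0.0058, limma). *Donson* had the lowest value of these 7 genes, -0.35.

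The GINS subunits differed in their values. *Gins2* passed the FDR below the FC threshold, with 0.63 on the log2 scale (adjusted p = 0.0402, limma), whereas *Gins3* had 0.09 and *Gins4* -0.38, the lowest of the 7 GINS and fork protection genes. Of these 7 genes 0 were DEGs. The same held for the 9 clamp loaders and clamp partners in the table, where *Rfc1*, the large subunit of the clamp loader, was lowest at -0.29. Of the 12 polymerase and primase genes 0 were DEGs. *Prim1* and *Pola1*, named after their values were seen, passed the FDR below the FC threshold, at 0.73 (adjusted p = 0.0426, limma) and 0.60 (adjusted p = 0.0493, limma). *Pold1*, the catalytic subunit of polymerase delta, was lowest at -0.70 (adjusted p = 0.124, limma).

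Among 9 genes for RPA and Okazaki fragment processing, the nuclease gene *Dna2* was the single DEG, at 1.05 (SE 0.26, adjusted p = 0.0117, limma), and *Rpa1* was lowest at -0.31. Nucleotide supply had the highest median of the replication groups, 0.84, and 2 DEGs among 6 genes. *Rrm2*, the regulated subunit of ribonucleotide reductase, rose from 18.3 ± 6.61 CPM to 63.4 ± 14.8 CPM (SD, n = 3), a log2 fold change of 1.79 (SE 0.28, adjusted p = 0.00127, limma). *Rrm1*, the large subunit of the same enzyme, rose with a log2 fold change of 1.21 (SE 0.15), and *Dut* was lowest at 0.25.

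**Figure D4:**
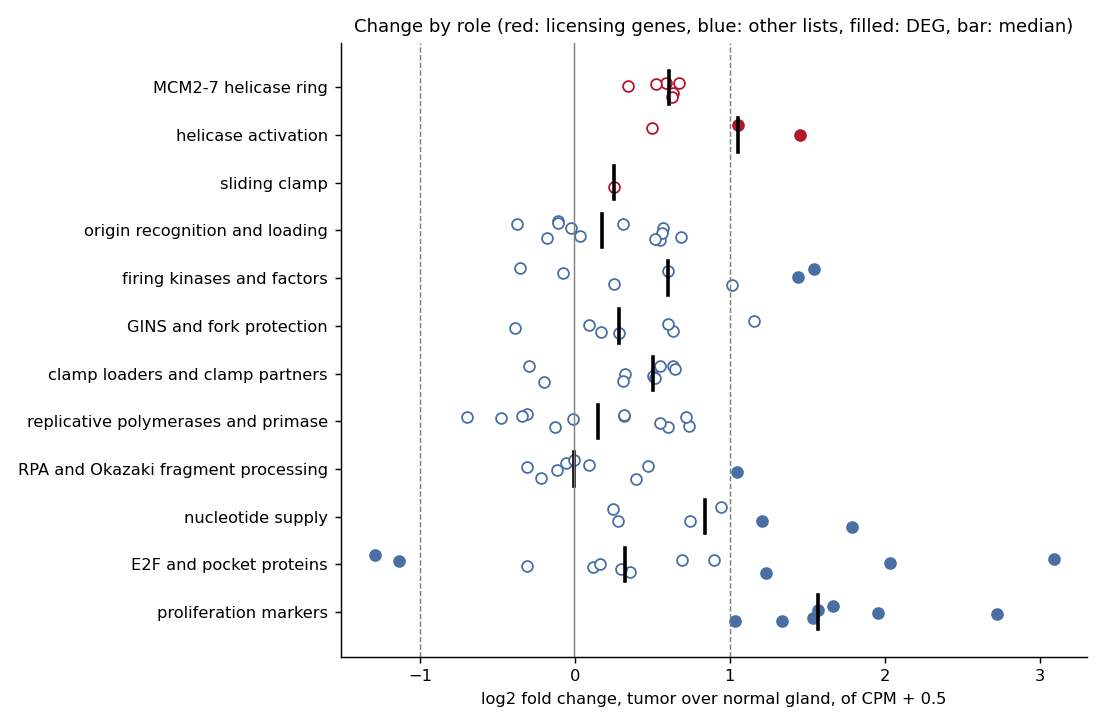
Log2 fold change (tumor against normal gland) of the 10 members and of the other genes by role, with 1 point per gene and DEGs marked. The ring, sliding clamp, origin recognition, GINS and fork protection, clamp loader and polymerase groups hold 0 DEGs. The 7 proliferation markers are all beyond the FC threshold.

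The E2F factors and pocket proteins were read as the known regulators of the licensing genes. Of 12 genes, 3 were upregulated DEGs (*E2f3*, *E2f7* and *E2f8*) and 2 downregulated (*Rb1* and *Rbl2*), beside 14.5% and 13.7% of all genes. Of these DEGs, *E2f3*, *E2f7* and *Rbl2* are named after their values were seen. *E2f8*, which encodes an atypical E2F known as a repressor, rose from 6.55 ± 1.70 CPM to 58.9 ± 10.1 CPM (SD, n = 3), a log2 fold change of 3.09. *Rb1*, which encodes the pocket protein that holds activating E2F factors in check, had the largest fall of the group, with a log2 fold change of -1.29 (SE 0.23, adjusted p = 0.00244, limma). Of the activating factors, *E2f3* rose with a log2 fold change of 1.23 (SE 0.15), whereas *E2f1* and *E2f2* did not pass the FDR, at 0.35 (adjusted p = 0.404, limma) and 0.69 (adjusted p = 0.113, limma).

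All 7 proliferation markers were upregulated DEGs, with a median log2 fold change of 1.57, and the tissues overlapped in none. *Mki67*, which marks cycling cells, had 326, 166 and 315 CPM in the glands, and 702, 537 and 390 CPM in the tumors (log2 fold change 1.03, adjusted p = 0.0225, limma). *Top2a*, a topoisomerase made in late S phase and G2, had a log2 fold change of 1.54 and *Ccnb1*, the mitotic cyclin, one of 2.72. The ring sum divided by *Mki67* was 0.557, 0.627 and 0.515 in the glands and 0.351, 0.402 and 0.447 in the tumors. Divided by *Top2a* it was 1.34, 1.40 and 1.35 in the glands and 0.619, 0.639 and 0.785 in the tumors. Both ratios were lower in every tumor than in every gland, so the ring sum differed less between the tissues than the 2 markers did.

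The tissues also differed in their cell type markers. In bulk samples, fewer cells of a type and less RNA per cell cannot be told apart. All 6 adipocyte markers (summed level 3016 to 6110 CPM in glands and 144 to 205 CPM in tumors) were downregulated DEGs, and 5 of 6 epithelial markers (209 to 464 CPM and 1954 to 2533 CPM) were upregulated, with *Epcam* not called. All 5 B cell markers (142 to 358 CPM in glands and 2.23 to 4.09 CPM in tumors, with *Pax5* at 0 in 2 tumors) and all 6 T cell markers (166 to 421 CPM and 25.3 to 41.1 CPM) were downregulated DEGs. In the glands, the B and T cell markers together summed to 779, 307 and 588 CPM in M11035, M11640 and M9232, beside a ring sum of 181, 104 and 162 CPM. The part of lymphocytes in the gland levels of the members was not tested.

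**Figure D5:**
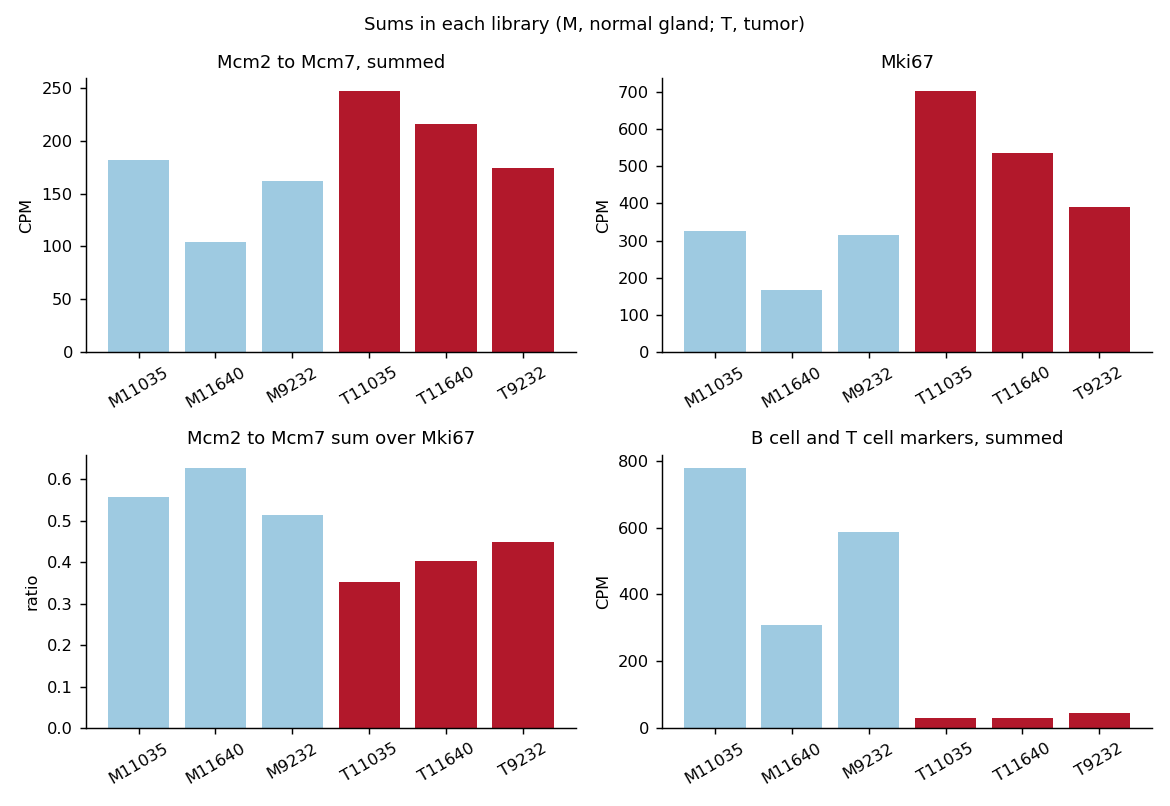
Bars give the summed CPM of the 6 ring genes, the CPM of *Mki67*, the ratio of that sum to *Mki67* and the summed CPM of the B and T cell markers, in each of the 6 libraries. In the glands the CPM values are lowest in M11640, the ratio is lower in every tumor than in every gland, and in the tumors the lymphocyte markers lie between 29.4 and 44.2 CPM.

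Of the remaining lists, 2 of the 3 neutrophil markers in the table were upregulated and 1 downregulated (28.9 to 99.2 CPM in glands and 651 to 1115 CPM in tumors). Of 5 fibroblast markers 2 were upregulated (645 to 2409 CPM and 5516 to 5904 CPM), and of 5 macrophage markers 0 were called (224 to 798 CPM and 384 to 608 CPM). Of 4 endothelial markers 2 were downregulated (320 to 435 CPM and 173 to 245 CPM). Skeletal muscle markers stood at 3549 and 1384 CPM in M11035 and M11640 but at 2.87 CPM in M9232 and at 6.42 to 12.4 CPM in tumors, with 0 of 4 called. Of the erythroid precursor markers 1 of 4 had a row, with 0.661 to 2.05 CPM in glands and at most 0.655 CPM in tumors. The part of these cell types in the members' values was not tested either.

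The genes whose profile over the 6 libraries was closest to the median centred log2 profile of the members were *Impdh2*, *Gmnn*, *Oip5*, *Zfp109* and *Atp13a1*. Their root mean square differences from it were 0.081, 0.093, 0.094, 0.101 and 0.102 on the log2 scale, where the median of 14702 candidate genes was 0.584. *Impdh2* encodes an enzyme of guanine nucleotide synthesis, and *Gmnn* the inhibitor of Cdt1 named above. None of these 5 was a DEG, although *Impdh2* passed the FDR (adjusted p = 0.0477, limma) below the FC threshold. Their log2 fold changes lay between 0.47 and 0.69, near the median of the members because the genes were chosen by this profile.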

How the data were processed

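Libraries of 3 tumors and 3 normal, adjacent glands were assigned to tissue and mouse from the labels. According to the submitters' processing notes and the study's methods, the authors used CASAVA 1.8.2, mapped read pairs to mm9 with TopHat2 2.0.3, counted fragments per gene with HTSeq 0.5.3p9 and removed genes with fewer than 10 fragments. The authors deposited a normalized expression signal, CPM on the effective library size of edgeR 3.6.1. Its columns sum to 952151 to 1041170, so it was recorded as a signal and not as plain CPM. All values (100%) were whole multiples of 1 fragment within 0.1 fragment, so fragments were recovered by division. Floors cover counting error only, since PCR copies are not independent molecules.

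Tests used limma 3.58.1 (R 4.3.3) on log2(CPM + 0.5), with a trend of variance on mean and without a block, two-sided, with Benjamini-Hochberg adjustment over 15280 genes, and were checked on simulated data. A fold change is on this log2 scale and understates that of low genes. Alternatives were pseudocounts of 0.1 and 1, a filter at a mean of 1 CPM, limma without a trend, a replicate block, edgeR 4.0.16 and DESeq2 1.42.0 on recovered fragments, 2 other scalings, and leaving out each library.

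The tumor and gland of a number come from the same animal, so the numbers pair the samples. Their deviations from the group means correlated with r = 0.107, 0.151 and 0.0168 for the mice of T11035, T11640 and T9232 over 14712 genes. Between any 2 libraries of a tissue, the fragments differed by a chi-square of at least 12.4 per degree of freedom, so none was a copy of another.

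The members and lists were chosen with earlier results of these data known. Text names all members, their direct partners, the called gene with the largest rise and the lowest gene of each role group, reference markers and the 5 genes (mean of at least 1 CPM) closest in profile. Positions and transcript lengths came from the mm9 annotation (GENCODE vM1), copies from BLAST 2.17.0 (at least 90% identity over at least 200 bp). Protein sequences were not used here, and 1 list of cell type markers is not reported here.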

Additional observations from a re-analysis of the deposited data

How the results depend on the processing

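Over 15 alternative settings, 0 of the values followed changed direction. The median log2 fold change of the members lay between 0.34 and 0.75, and that of the other replication genes between 0.24 and 0.44. The number of upregulated DEGs among the 10 members was 2 in the reported fit, 1 with pseudocount 1, and 1 to 2 when 1 library was left out. The number that passed the FDR was 2, and 1 to 5 when 1 library was left out. Among the 62 other replication genes 11 passed it and were higher in tumors, beside 21.6% of all genes. When 1 library was left out 6 to 14 did, and 4 to 7 were upregulated DEGs over all settings. With the mouse as a replicate block, 2 members were DEGs and 3 passed the FDR, *Mcm3* being added, and no other call of a member changed. *Gins1* lost its call in 5 settings. Fits that leave out a library rest on 2 libraries in 1 tissue. With 12 to 24 fragments on *Mcm10* in the glands and 24 to 30 on *Gins1*, the 2 called members are among those with the fewest counts, and the intervals of the ring genes reach up to a log2 fold change of 1.36. The scalings moved the median of all genes by less than 0.1.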
